A study of Mus musculus with 23 samples.

Results

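The glucocorticoid receptor gene Nr3c1 and 8 genes of its response, Hsd11b1, Fkbp5, Tsc22d3, Klf15, Klf9, Zbtb16, Ddit4 and Sgk1, were followed in the skeletal muscle and fat of mice with and without pancreatic tumors. The 9 genes were taken by symbol from the 2 deposited tables of gene counts. All 9 were found in both, among 12831 genes in quadriceps and 16962 genes in epididymal fat, and a filter on low counts removed no gene from either table. RNA sequencing of whole tissue was done on male C57BL/6 mice (C57BL/6J in the study's methods), which were 8 weeks old when tumor cells were implanted. No tumor mice had sham surgery, KPC mice received KPC pancreatic tumor cells in the pancreas, and KPC IL6KO mice received KPC cells in which the Il6 gene, encoding the cytokine IL-6, had been disrupted with CRISPR/Cas9. KPC cells come from a pancreatic tumor of a genetically engineered mouse carrying Pdx1-Cre, and the KPC clone used as control was transfected without guide RNA. All mice were killed together once the KPC mice were wasted. The question asked of these genes was whether a tumor, with or without its own IL-6, goes with a changed glucocorticoid response in either tissue.

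Quadriceps held 3 no tumor, 4 KPC and 4 KPC IL6KO libraries, and epididymal fat held 4 of each. Each tumor line was 1 clone, so the clone and the loss of Il6 cannot be told apart. The study also reports larger tumors in KPC than in KPC IL6KO mice, without a correlation of tumor and muscle mass. Tumor size and the loss of Il6 therefore cannot be told apart in KPC against KPC IL6KO either. The host mice keep their own Il6 gene, so Il6 transcripts in these tissues do not check the labels. RNA of the 2 tissues was isolated and sequenced separately, so that tissue and preparation cannot be told apart, and whether both tissues came from the same mice is not stated. One more muscle sample from a mouse without a tumor had been set aside by the study and is not analysed here.

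The glucocorticoid receptor is a nuclear receptor that is held ready for hormone by Hsp90 and its partners in the cytoplasm, moves to the nucleus when corticosterone binds, and there switches target genes on or off. In skeletal muscle it is known for turning on protein breakdown and amino acid release during fasting and stress. In fat it is known for its part in lipolysis and in the formation of adipocytes. Of the genes followed here, Hsd11b1 encodes the enzyme that regenerates active hormone inside cells, Fkbp5 a receptor-bound brake on hormone binding, Tsc22d3, Klf15, Klf9 and Zbtb16 regulators of transcription, and Ddit4 and Sgk1 regulators of growth signalling.

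The receptor binds DNA as a dimer, at a pair of inverted hexamers. RefSeq promoter windows on GRCm38.p6, from 250 bases before to 50 bases after a transcript start, were matched by symbol for 7 of the 9 genes and gave 14 windows. Nr3c1 and Zbtb16 had no entry. Windows were searched on both strands for the full site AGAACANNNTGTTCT, for its core GNACANNNTGTNC, which lies inside the full site, and for the single hexamer AGAACA or TGTTCT, which makes up each arm of the full site. The full site was found in 3 of all 32851 windows (0.00913%), the core in 156 (0.475%) and a hexamer in 6233 (19%). A window of Sgk1 held one of those 3 full sites, and 3 other windows, 2 of Sgk1 and 1 of Tsc22d3, held a hexamer alone. The stretches before the start from the Sgk1 window with the full site and from the Tsc22d3 window are printed, with matches in capitals, because they hold the longest match of each gene.
Sgk1 chr10:21993640-21993889 plus strand: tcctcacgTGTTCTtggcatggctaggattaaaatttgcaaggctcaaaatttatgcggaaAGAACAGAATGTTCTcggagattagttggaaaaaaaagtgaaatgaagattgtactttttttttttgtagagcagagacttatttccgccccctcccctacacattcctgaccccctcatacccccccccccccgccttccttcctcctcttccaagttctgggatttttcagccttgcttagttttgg
Tsc22d3 chrX:140600660-140600772 minus strand: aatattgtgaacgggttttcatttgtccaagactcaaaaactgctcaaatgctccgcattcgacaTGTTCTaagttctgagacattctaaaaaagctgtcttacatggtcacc
The full site of Sgk1 began 189 bases before the start of a shorter transcript, in a stretch of 250 bases that lay within the Sgk1 gene and in no exon of GENCODE M21. Its 2 arms were counted again in the hexamer search, beside another hexamer near the upstream end of the stretch. The Tsc22d3 hexamer began 185 bases before the RefSeq start, and the 113 bases printed stop at the first exon of GENCODE M21, which begins upstream of that RefSeq start. Gene positions below are those of RefSeq. The single windows of Hsd11b1, Fkbp5, Klf15, Klf9 and Ddit4 held none of these letters, which says nothing of sites elsewhere. Among the called genes of the 9 in KPC against no tumor quadriceps, Sgk1, with the full site, had the lowest difference and Fkbp5, with no match in its window, the highest.

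Total counts were 19259763 to 74907810 per library in quadriceps and 26306377 to 56308545 in epididymal fat, so that 3 counts stood for 0.0462 to 0.154 and for 0.0474 to 0.123 CPM (counts scaled to library size), and each of the 9 genes was far above that in every library. The no tumor 3 muscle library was the shallowest. The variation between replicates fitted over all genes was 22.7% in quadriceps and 63.5% in epididymal fat. Quadriceps libraries had 125701 to 191860 CPM of 8 muscle fiber markers in sum, and fat libraries had 1116 to 20061 CPM of 7 adipocyte markers. The fat libraries also held 790.6 to 88675 CPM of 8 epididymis markers, which are not fat cell genes. Muscle fiber markers in fat summed to 8.68 to 288 CPM in no tumor and 5.46 to 10.3 CPM in KPC libraries. They summed to 102 to 2764 CPM in KPC IL6KO libraries, above every KPC library. In whole tissue, fewer cells of a type and less RNA per cell cannot be told apart. Levels below are CPM after scaling by trimmed mean of M values (TMM). Differences are log2 fold changes from edgeR's quasi-likelihood test with p adjusted over all genes of the table by Benjamini-Hochberg, and a gene was called at an adjusted p of 0.05 or less with a fold change of 1.5 or more.

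In quadriceps, 8 of the 9 genes rose in KPC mice against no tumor mice, and the receptor gene was the exception. Fkbp5 rose 15.6-fold, Zbtb16 7.34-fold, Ddit4 6.52-fold, Klf15 4.94-fold, Hsd11b1 2.82-fold, Klf9 2.33-fold, Tsc22d3 1.86-fold and Sgk1 1.61-fold. Of all 12831 genes, 26.7% were called higher in this comparison and 29% lower. For 6 of the 9 genes every KPC library lay above every no tumor library, against 32.3% of all genes. The median difference of the 9 genes was 1.497 on the log2 scale, beside -0.03 over all genes. The KPC IL6KO mice showed no called gene among the 9 against no tumor mice, where 0% of all genes were called. In KPC against KPC IL6KO, 8 of the 9 were higher. There 26.4% of all genes were called higher, 27.3% were called lower and 31.2% did not overlap in the higher direction. These comparisons share samples and are given side by side for each gene.

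**Figure D1:**
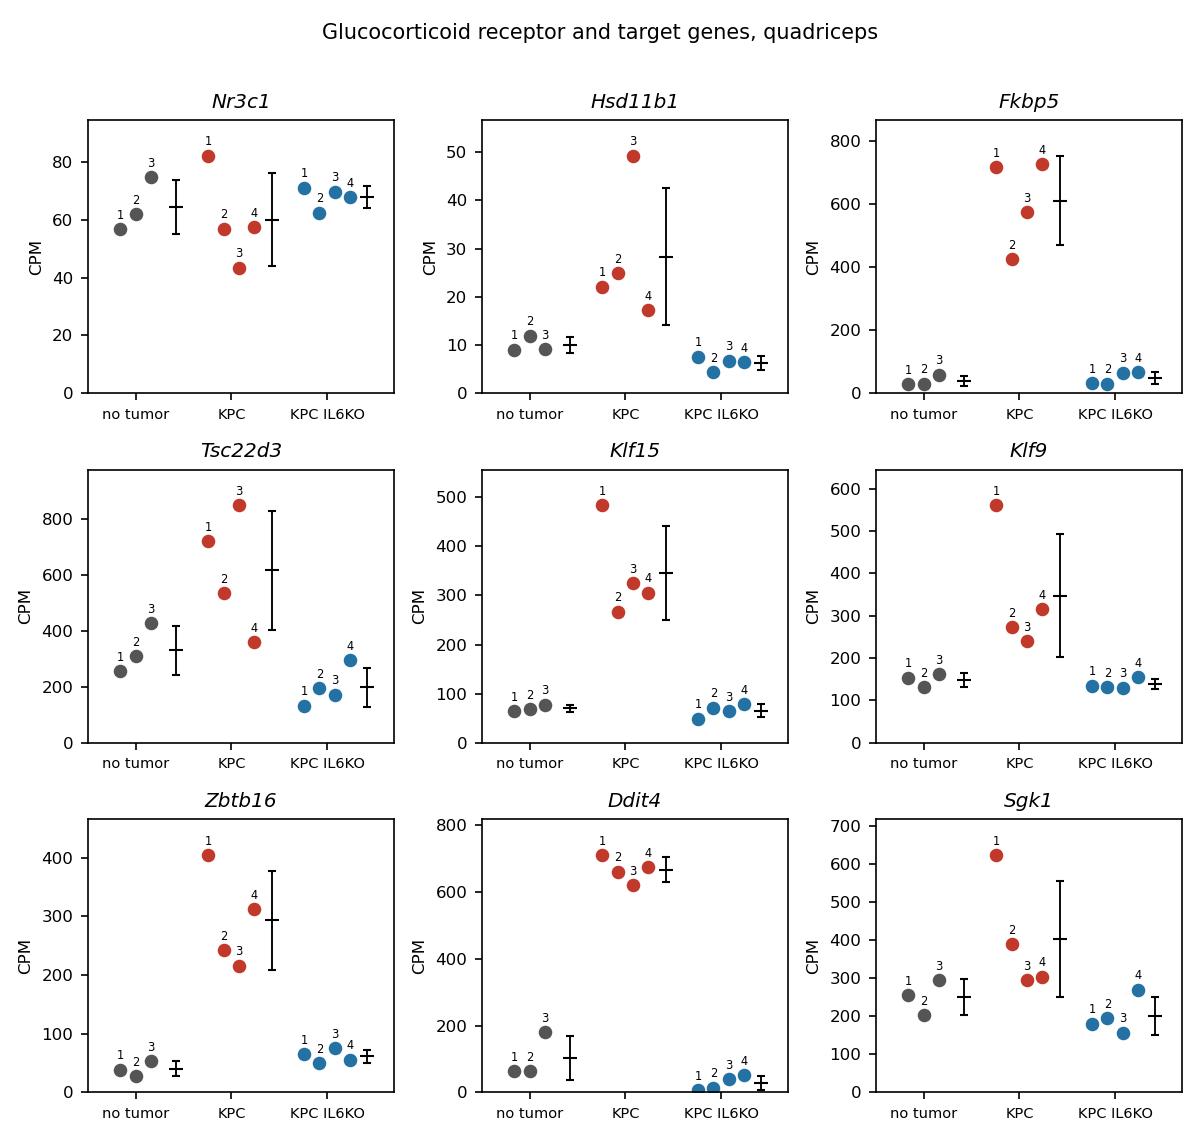
CPM (vertical axes, from 0) of the 9 genes in each quadriceps library, with points numbered by replicate, and the mean ± SD of each group as a bar (n = 3, 4 and 4). All 4 KPC points of Fkbp5, Klf15, Klf9, Zbtb16, Ddit4 and Hsd11b1 lie above all points of both other groups, while the groups overlap for Nr3c1.

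Nr3c1, the receptor gene itself, had 56.8, 61.98 and 74.7 CPM in the 3 no tumor libraries, 82.2, 57.0, 43.4 and 57.5 CPM in the KPC libraries and 71.1, 62.5, 69.7 and 68.0 CPM in the KPC IL6KO libraries. The KPC libraries included both the highest and the lowest values, and the 3 groups overlapped. KPC differed from no tumor by -0.10 ± 0.18 (SE, adjusted p = 0.629) and from KPC IL6KO by -0.18 ± 0.17 (SE, adjusted p = 0.365). Neither difference passed the test. As single libraries were left out, the difference from KPC IL6KO ranged from -0.37 without KPC 1 to -0.049 without KPC 3. Its adjusted p in the quasi-likelihood test ranged from 0.0279 to 0.774, and its fold change stayed under the threshold.

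Hsd11b1 (chr1:193221640-193264045), whose enzyme turns inactive 11-dehydrocorticosterone back into corticosterone, had 9.02, 11.9 and 9.12 CPM in no tumor, 22.1, 24.9, 49.3 and 17.2 CPM in KPC mice and 7.58, 4.35, 6.75 and 6.47 CPM in KPC IL6KO libraries. The groups did not overlap: KPC was highest, no tumor was between and KPC IL6KO was lowest. KPC 3 was well above the other KPC libraries. The difference was 1.497 ± 0.33 (SE, adjusted p = 0.00171) in KPC against no tumor and 2.17 ± 0.30 (SE, adjusted p = 7.11e-05) in KPC against KPC IL6KO. Against no tumor, KPC IL6KO differed by -0.68 ± 0.32 (SE, adjusted p = 0.747), which did not pass the test.

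Fkbp5 (chr17:28398753-28486149), an Hsp90-bound immunophilin that lowers the hormone affinity of the receptor, had 28.8, 30.6 and 58.5 CPM in no tumor, 716, 425, 573 and 726 CPM in KPC mice and 31.7, 29.7, 65.1 and 66.4 CPM in KPC IL6KO libraries. The lowest KPC library was several times above the highest library of the other groups, which overlapped with each other. Its difference in KPC was 3.96 ± 0.40 (SE, adjusted p = 9.01e-06) against no tumor, higher than that of 99.6% of all genes, and 3.66 ± 0.35 (SE, adjusted p = 5.58e-06) against KPC IL6KO. KPC IL6KO differed from no tumor by 0.30 ± 0.35 (SE, adjusted p = 1.00).

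Among the regulators of transcription, Klf15 (chr6:90461043-90491803), a zinc finger factor known for turning on amino acid breakdown in muscle, had 64.0, 68.6 and 77.3 CPM in no tumor, 483, 267, 325 and 305 CPM in KPC mice and 48.7, 71.7, 64.3 and 78.3 CPM in KPC IL6KO libraries. KPC lay apart from the other groups, which overlapped. The difference was 2.30 ± 0.22 (SE, adjusted p = 6.37e-06) against no tumor and 2.39 ± 0.20 (SE, adjusted p = 2.54e-06) against KPC IL6KO. Zbtb16 (chr9:48651797-48836225), the zinc finger repressor also called PLZF, had 38.7, 28.0 and 53.5 CPM in no tumor, 404, 242, 216 and 312 CPM in KPC mice and 64.8, 49.8, 75.6 and 55.8 CPM in KPC IL6KO libraries. It was the gene of the 9 with the highest KPC IL6KO difference from no tumor, 0.62 ± 0.25 (SE, adjusted p = 0.608), which did not pass. In KPC it differed by 2.88 ± 0.28 (SE, adjusted p = 6.65e-06) from no tumor and by 2.26 ± 0.24 (SE, adjusted p = 1.14e-05) from KPC IL6KO.

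Klf9 (chr19:23141226-23168129), another Krüppel-like factor, had 154, 131 and 162 CPM in no tumor, 561, 273, 240.1 and 316 CPM in KPC mice and 135, 131, 130.1 and 155 CPM in KPC IL6KO libraries. KPC 1 stood highest, and the other KPC libraries were still above both other groups. The difference was 1.22 ± 0.25 (SE, adjusted p = 0.00107) against no tumor and 1.33 ± 0.23 (SE, adjusted p = 2.97e-04) against KPC IL6KO. Tsc22d3 (chrX:140539528-140600522), the glucocorticoid-induced leucine zipper protein that restrains inflammatory transcription, had 257, 310.1 and 427 CPM in no tumor, 722, 536, 849 and 359.8 CPM in KPC mice and 133, 195, 172 and 295 CPM in KPC IL6KO libraries. KPC overlapped with no tumor through KPC 4 and no tumor 3, and lay wholly above KPC IL6KO. The difference was 0.90 ± 0.32 (SE, adjusted p = 0.0266) against no tumor and 1.63 ± 0.30 (SE, adjusted p = 4.72e-04) against KPC IL6KO. KPC IL6KO differed from no tumor by -0.74 ± 0.31 (SE, adjusted p = 0.634), an unadjusted p of 0.0362.

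Ddit4 (chr10:59949675-59951770), also called REDD1, which lowers growth signalling through mTORC1, had 63.6, 64.1 and 179 CPM in no tumor, 709.6, 659.5, 619 and 674 CPM in KPC mice and 6.20, 13.7, 39.6 and 51.3 CPM in KPC IL6KO libraries. The 4 KPC libraries were close together, no tumor 3 stood above the other no tumor libraries, and every KPC IL6KO library was below every no tumor library. The difference was 2.704 ± 0.64 (SE, adjusted p = 0.00280) in KPC against no tumor and 4.58 ± 0.62 (SE, adjusted p = 5.92e-05) in KPC against KPC IL6KO. The latter was 24.0-fold. Without no tumor 3 the first difference was 3.38. In KPC IL6KO against no tumor the difference was -1.88 ± 0.58 (SE, adjusted p = 0.442) with an unadjusted p of 0.00765, and it did not pass. It was -1.20 without no tumor 3.

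Sgk1 (chr10:21882184-21999903), a kinase that acts on ion transport and Foxo factors and whose window held the full site printed above, had 254, 202 and 294 CPM in no tumor, 623, 389, 294 and 304 CPM in KPC mice and 180.1, 195, 157 and 269.8 CPM in KPC IL6KO libraries. KPC 1 was far above the other KPC libraries, KPC 3 was level with no tumor 3, and all KPC libraries were above all KPC IL6KO libraries. The difference was 0.69 ± 0.27 (SE, adjusted p = 0.0405) against no tumor and 1.01 ± 0.25 (SE, adjusted p = 0.00361) against KPC IL6KO. KPC IL6KO differed from no tumor by -0.32 ± 0.27 (SE, adjusted p = 0.983).

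The calls of Sgk1 and Tsc22d3 in KPC against no tumor turned on single libraries. The Sgk1 difference was 0.40 without KPC 1, and its adjusted p rose above the threshold without KPC 1 or 2, without no tumor 1 or 2, and without KPC IL6KO 1 or 2. Over these and the other leave-one-out fits it ranged from 0.0218 to 0.145. Tsc22d3 missed the threshold without KPC 1 or 3 and without no tumor 1 or 2, with adjusted p from 0.00676 to 0.0942 over all leave-one-out fits. Scaling by total counts instead of TMM also ended both calls, left 6 of the 9 genes called, moved the median of all genes from -0.03 to -0.24 and moved the calls over all genes from 3428 higher and 3719 lower to 2622 higher and 4499 lower. In KPC against KPC IL6KO the same scaling moved the median of all genes from -0.01 to -0.14. The other 6 called genes passed in every alternative fitted, and the KPC against KPC IL6KO calls of all 8 genes did too. The no tumor 3 library, the shallowest, was the highest of its group for 8 of the 9 genes, KPC 1 was highest for 6 and KPC IL6KO 4 for 6.

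**Figure D2:**
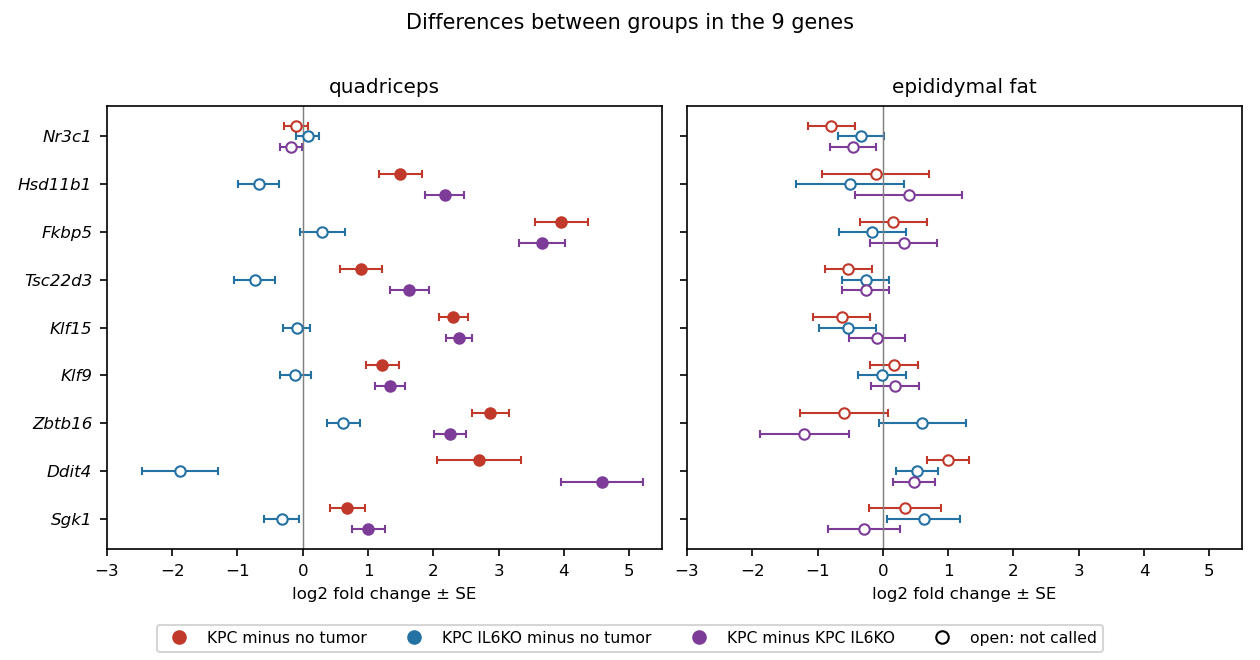
Log2 fold changes ± SE (horizontal axes) of the 9 genes in 3 comparisons in quadriceps (left) and epididymal fat (right), with filled points for called genes. In quadriceps 8 genes are filled in both comparisons with KPC, led by Ddit4 at 4.58 against KPC IL6KO and Fkbp5 at 3.96 against no tumor. No point is filled in fat, where 0% of all genes were called.

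No gene of the 9 was called in KPC IL6KO against no tumor in quadriceps by the quasi-likelihood test, nor by DESeq2 or edgeR's likelihood ratio test. Neither was any of the 12831 genes by the quasi-likelihood test (0%), though DESeq2 called 30 higher and 66 lower and the likelihood ratio test 25 higher and 70 lower. Of the 9 genes, 3 had an unadjusted p under 0.05, Ddit4, Tsc22d3 and Zbtb16, against 6.91% of all genes. Hsd11b1 and Ddit4 lay below no tumor with no overlap, as did 8.01% of all genes.

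Levels per length of exon gave another view of the same libraries. In no tumor quadriceps Tsc22d3 was the highest of the 9 genes at 119.6 ± 31.5 RPKM (CPM divided by the exon length in kilobases, mean ± SD, n = 3), followed by Sgk1 at 61.7 ± 11.4, Ddit4 at 58.3 ± 38.0, Klf9 at 33.2 ± 3.64 and Klf15 at 25.4 ± 2.45 RPKM. Nr3c1 at 9.86 ± 1.41, Zbtb16 at 7.59 ± 2.42, Fkbp5 at 6.01 ± 2.54 and Hsd11b1 at 5.31 ± 0.877 RPKM made up the lower end. Ddit4 did not differ from Sgk1, Klf9 or Klf15 beyond its spread, and neighbours among the lower 4 genes did not either. In KPC quadriceps (n = 4) the order was led by Ddit4 at 379 ± 21.3 and Tsc22d3 at 222 ± 77.3 RPKM. Klf15 at 125 ± 34.5, Sgk1 at 99.2 ± 37.7, Fkbp5 at 93.3 ± 21.7 and Klf9 at 77.5 ± 32.4 RPKM followed, then Zbtb16 at 55.6 ± 15.97, Hsd11b1 at 15.03 ± 7.58 and Nr3c1 at 9.18 ± 2.47 RPKM. The spreads of neighbours overlapped from Tsc22d3 down to Zbtb16, and again between Hsd11b1 and Nr3c1.

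Other genes of the pathway were read from 7 lists. Of 53 other genes known to be induced by glucocorticoid, 51 were measured in quadriceps, and 33 rose and 5 fell in KPC against no tumor, beside 26.7% of all genes called higher and 29% called lower, with a median of 1.62 beside -0.03 over all genes. Against KPC IL6KO, 38 rose and 5 fell, beside 26.4% and 27.3% of all genes, with a median of 1.98. No gene of the list was called in KPC IL6KO against no tumor, where 0% of all genes were called and the list's median was -0.24. The 5 highest were Lcn2, an iron-binding acute phase protein, at 6.27 ± 0.91 (SE, adjusted p = 9.73e-05), the metallothioneins Mt2 at 6.00 ± 0.68 (SE, adjusted p = 1.83e-05) and Mt1 at 5.38 ± 0.54 (SE, adjusted p = 7.93e-06), the AMP deaminase Ampd3 at 5.24 ± 0.51 (SE, adjusted p = 6.84e-06) and the acyl-CoA thioesterase Acot1 at 5.14 ± 0.89 (SE, adjusted p = 3.57e-04). Acot1 has close copies with which it may share reads. The list's gene with the highest level was Trim63, the muscle ubiquitin ligase MuRF1, with 259 ± 78.1 CPM (mean ± SD, n = 3) in no tumor and 8534 ± 1942 CPM (n = 4) in KPC, a difference of 5.04 ± 0.37 (SE, adjusted p = 1.51e-06). Lcn2 and the metallothioneins are also known as genes of the acute phase response and of metal exposure, and Trim63 as a target of Foxo factors.

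The 5 genes of that list that fell were Bcl6, a transcriptional repressor, at -2.36 ± 0.57 (SE, adjusted p = 0.00318), the endothelial anticoagulant gene Thbd at -1.53 ± 0.16 (SE, adjusted p = 8.85e-06), Anxa1, the anti-inflammatory annexin A1, at -1.19 ± 0.16 (SE, adjusted p = 7.28e-05), the cell cycle inhibitor Cdkn1c at -1.06 ± 0.14 (SE, adjusted p = 5.00e-05) and the secreted protein gene Crispld2 at -0.98 ± 0.19 (SE, adjusted p = 8.50e-04). Fibroblast markers moved with them: all 5 were called lower in KPC, from 919 to 1008 CPM in sum in no tumor libraries to 159 to 264 CPM in KPC mice and 512 to 779 CPM in KPC IL6KO. Of 5 endothelial markers, 2 were called lower. For both lists, the share of all genes called lower was 29%. Of 7 macrophage markers, 1 was called higher and 2 lower. Adipocyte markers had 2 of 7 called lower, muscle fiber markers 1 of 8 and lymphocyte markers the 1 measured. Neutrophil markers moved with Lcn2: the 4 measured of 7 were called higher, beside 26.7% of all genes. Their sum was 0.359 to 0.779 CPM in no tumor, 4.50 to 21.8 CPM in KPC mice and 2.14 to 4.13 CPM in KPC IL6KO libraries. Cxcr2, Mmp8 and Ly6g were not in the table. Muscle fiber markers in sum were 155821 to 190472 CPM in no tumor, 125701 to 145472 CPM in KPC mice and 177562 to 191860 CPM in KPC IL6KO libraries. The part of these cells in the values of the 9 genes was not tested.

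**Figure D3:**
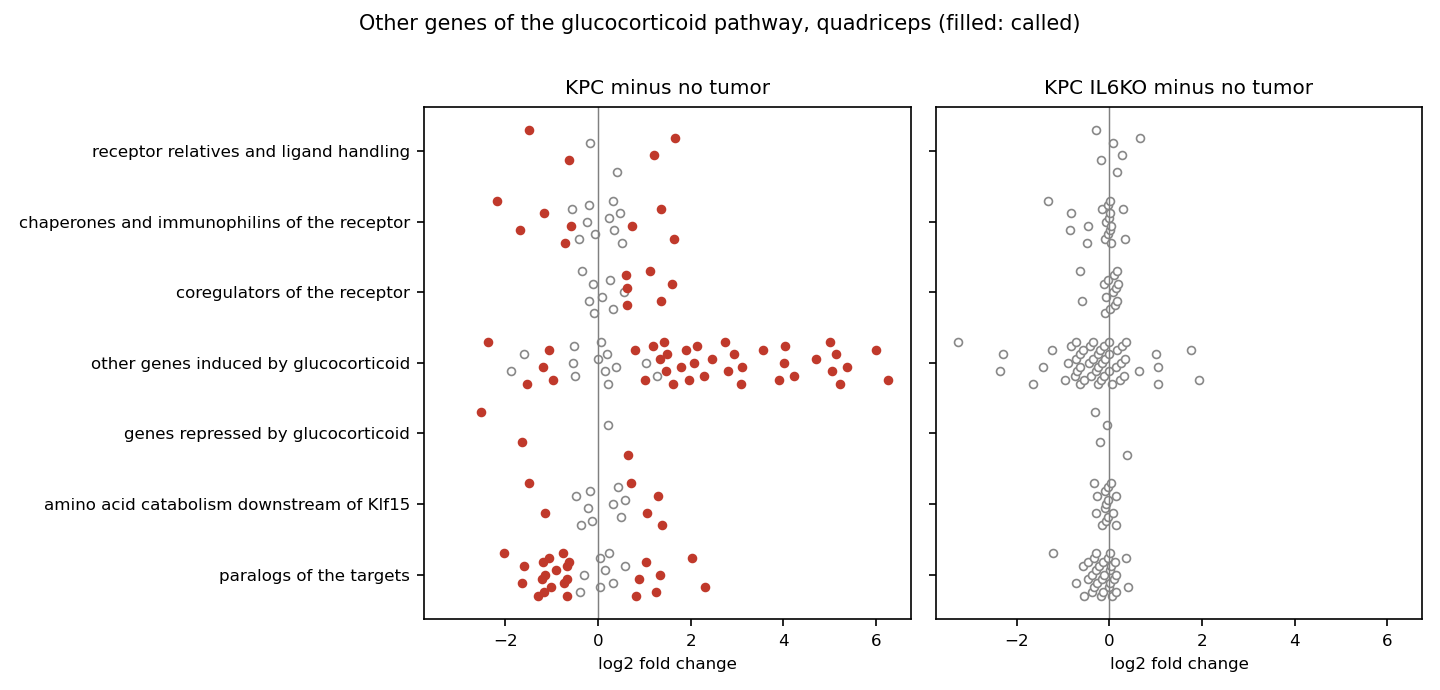
Log2 fold changes (horizontal axes) of the measured genes of 7 pathway lists in quadriceps, in KPC against no tumor (left) and KPC IL6KO against no tumor (right), with called genes filled. Of the 51 measured genes induced by glucocorticoid, 33 are filled to the right of 0 and 5 to the left in KPC. None is filled in KPC IL6KO, where 0% of all genes were called.

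Of 18 chaperones and immunophilins of the receptor, 3 rose and 5 fell in KPC quadriceps, no more than the shares of all genes, 26.7% higher and 29% lower, and the median was -0.13. Hsp90ab1, the abundant Hsp90 form that keeps the receptor able to bind hormone, rose from 1189 ± 135 to 3712 ± 939 CPM, a difference of 1.64 ± 0.20 (SE, adjusted p = 2.78e-05). Hspa1b, a stress-induced Hsp70, was lowest at -2.19 ± 0.45 (SE, adjusted p = 0.00110), and its near-identical copy Hspa1a can share its reads. Of 14 coregulators, 6 rose and none fell, beside 26.7% of all genes called higher and 29% called lower, with a median of 0.44. Crtc2, a coactivator of CREB, was highest of these at 1.60 ± 0.14 (SE, adjusted p = 3.47e-06).

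Of 11 receptor relatives and genes of ligand handling, 6 were measured, 2 of which rose and 2 fell, beside 26.7% of all genes called higher and 29% called lower. Abcb1b, a drug pump that exports steroids, rose by 1.67 ± 0.17 (SE, adjusted p = 8.65e-06), and H6pd, which supplies the NADPH used by the Hsd11b1 enzyme and had the highest level, rose by 1.20 ± 0.21 (SE, adjusted p = 4.00e-04). Nr3c2, the mineralocorticoid receptor, was lower at -1.50 ± 0.22 (SE, adjusted p = 1.20e-04), with 8.42 ± 0.438 CPM in no tumor and 2.99 ± 0.891 CPM in KPC. Of 15 genes of amino acid breakdown downstream of Klf15, 4 rose and 2 fell, no more than the shares of all genes, 26.7% higher and 29% lower, and the median was 0.32. They were led by proline dehydrogenase, Prodh, at 1.38 ± 0.28 (SE, adjusted p = 8.96e-04), with Ppm1k, the phosphatase that activates branched-chain amino acid oxidation, lowest at -1.48 ± 0.30 (SE, adjusted p = 9.77e-04). Got1, the cytosolic aspartate aminotransferase, had the highest level and rose by 1.31 ± 0.25 (SE, adjusted p = 7.63e-04).

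Only 4 of 19 genes known to be repressed by glucocorticoid were in the quadriceps table, of which 1 rose and 2 fell, beside 26.7% of all genes called higher and 29% called lower. The adhesion molecule Icam1 rose by 0.64 ± 0.24 (SE, adjusted p = 0.0329), and Nos2, the inducible nitric oxide synthase, was lower at -2.52 ± 0.47 (SE, adjusted p = 6.04e-04). Among 32 measured of 37 paralogs of the 8 targets, 7 rose and 17 fell in KPC, beside 26.7% of all genes called higher and 29% called lower, with a median of -0.65. Fkbpl, a relative of Fkbp5, was highest at 2.32 ± 0.18 (SE, adjusted p = 1.98e-06), and Ddit4l, the close relative of Ddit4 and the paralog with the highest level, fell from 224 ± 7.95 to 54.9 ± 39.3 CPM, a difference of -2.03 ± 0.39 (SE, adjusted p = 7.34e-04). Ddit4 and Ddit4l therefore moved in opposite directions in KPC muscle. In KPC IL6KO against no tumor none of these lists had a called gene, where 0% of all genes were called. Ddit4l differed there by 0.40 ± 0.39 (SE, adjusted p = 1.00).

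The genes nearest to Nr3c1 and to Fkbp5 were found by the root mean square difference, over the 11 quadriceps libraries, of log2 CPM from each gene's own no tumor mean, among 10519 genes. Nearest to Nr3c1 were Kif1b at 0.101, Qser1 at 0.120, Myom2 at 0.125, Ppp3ca at 0.125 and E2f6 at 0.131. Nearest to Fkbp5 were Zwint at 0.348, Eif4ebp1 at 0.352, Snhg12 at 0.353, Napb at 0.399 and Tmem37 at 0.415. Zwint went from a mean of 41.4 CPM in no tumor to 651 CPM in KPC mice and 43.5 CPM in KPC IL6KO. Eif4ebp1, which encodes the translation repressor 4E-BP1, had means of 48.6, 753 and 62.6 CPM in the same order. These genes share the libraries and their scaling with Fkbp5 and Nr3c1, and the likeness is a description only.

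In epididymal fat none of the 9 genes was called in any of the 3 comparisons. The quasi-likelihood test called 0% of 16962 genes in each. DESeq2 called 364 genes higher and 221 lower in KPC against no tumor and the likelihood ratio test 268 and 145, none of them among the 9. Of the 9 genes, 2 had an unadjusted p under 0.05 in that comparison, Ddit4 and Nr3c1, against 12.2% of all genes, and none had in the other 2 comparisons, against 9.34% of all genes in KPC IL6KO against no tumor and 6.26% in KPC against KPC IL6KO. Their median was -0.11 in KPC against no tumor, beside -0.10 over all genes. The spread between fat libraries was wide, so a missed call does not show that levels were alike.

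The fat libraries fell apart by an epididymis gene. Gpx5, a gene of the epididymis, the duct beside which this fat pad lies, was at 21347 to 54957 CPM in 7 fat libraries and at 4.69 to 85.8 CPM in the other 5. The KPC libraries were all among the 7, with no tumor 5 and 7 and with KPC IL6KO 6, so that Gpx5 and the KPC group are mixed. The other 5 libraries were not free of epididymis genes, since Crisp1 was at 621 to 14517 CPM there and at 156 to 5754 CPM in the 7. Fkbp5 had a median of 530 CPM in the 7 libraries and 261 CPM in the 5, and Sgk1 had medians of 50.03 and 122 CPM. Within the no tumor group alone, Fkbp5 was at 530 and 552 CPM in the pair with high Gpx5. In the other pair it was at 198 and 272 CPM. Sgk1 was at 29.1 and 50.03 CPM against 95.0 and 122 CPM. Nr3c1, Hsd11b1, Tsc22d3, Klf15 and Zbtb16 were also lower in the high-Gpx5 pair with no overlap. For Nr3c1 the values were 54.7 and 98.9 against 106 and 217 CPM. Klf9 and Ddit4 overlapped between the pairs. Pairs of libraries separate easily by chance, and the share of all genes that separate in this way was not counted. No tumor 6, in the low-Gpx5 pair, was the highest of its group for 7 of the 9 genes. The part of epididymis RNA in these values was not tested beyond the fits with a Gpx5 term.

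**Figure D4:**
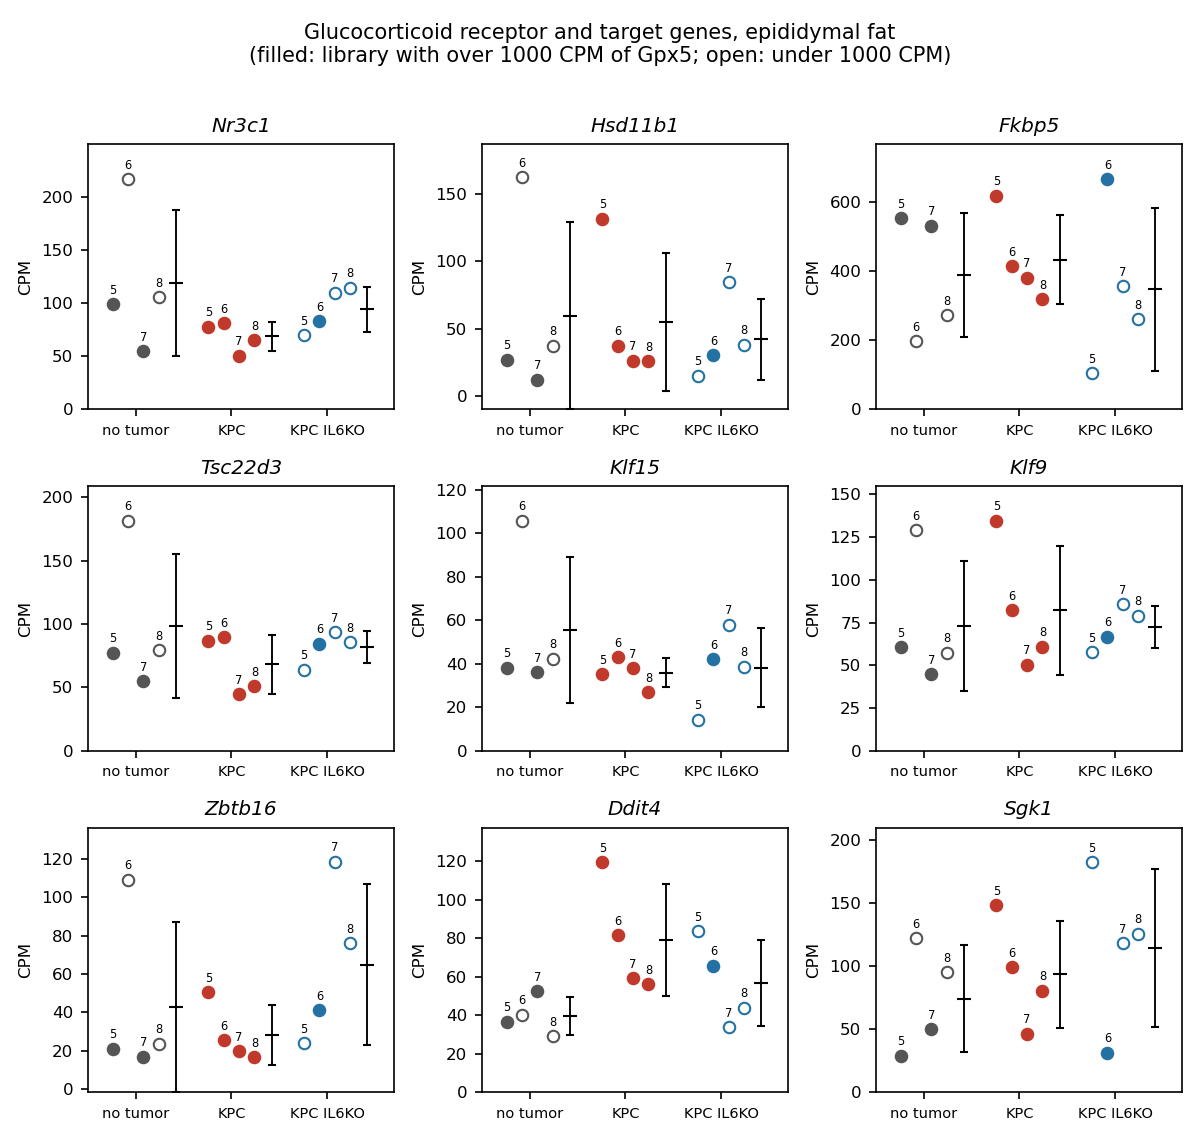
CPM (vertical axes) of the 9 genes in each epididymal fat library, numbered by replicate, with the mean ± SD of each group as a bar (n = 4 each) and filled points for the 7 libraries with over 1000 CPM of Gpx5. Points of the 3 groups overlap for every gene except KPC against no tumor for Ddit4, and no tumor 6 is the highest of its group for 7 genes, Klf15 and Zbtb16 among them.

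Nr3c1 in fat had 98.9, 217, 54.7 and 106 CPM in no tumor, 78.0, 81.2, 50.8 and 65.2 CPM in KPC mice and 70.1, 83.2, 109.7 and 114 CPM in KPC IL6KO libraries. No tumor 6 was highest and the groups overlapped. KPC differed from no tumor by -0.79 ± 0.36 (SE, adjusted p = 0.405), and by -0.33 without no tumor 6. Fkbp5 had 552, 198, 529.9 and 272 CPM in no tumor, 617, 414, 380.2 and 318 CPM in KPC mice and 104, 665, 356 and 261 CPM in KPC IL6KO libraries. The highest and the lowest values were both in KPC IL6KO, and KPC differed from no tumor by 0.16 ± 0.51 (SE, adjusted p = 0.920). With Gpx5 high or low as a factor the sign turned, to -0.38.

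Ddit4 was the gene of the 9 whose KPC and no tumor fat libraries did not overlap, with 36.8, 40.4, 52.6 and 29.3 CPM in no tumor, 119.7, 81.8, 59.5 and 56.3 CPM in KPC mice and 83.8, 65.8, 34.0 and 44.1 CPM in KPC IL6KO libraries. All KPC values were above all no tumor values, as for 6.52% of all genes, and KPC IL6KO spanned both. The difference was 1.00 ± 0.33 (SE, adjusted p = 0.285) in KPC against no tumor, with an unadjusted p of 0.0108, and 0.52 ± 0.32 (SE, adjusted p = 0.657) in KPC IL6KO against no tumor. Neither passed. Sgk1 had 29.1, 122, 50.03 and 95.0 CPM in no tumor, 148, 99.1, 46.6 and 80.6 CPM in KPC mice and 182, 31.4, 118 and 126 CPM in KPC IL6KO libraries. Each group covered a wide range, and KPC differed from no tumor by 0.34 ± 0.56 (SE, adjusted p = 0.822).

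Klf15 in fat had 38.1, 106, 36.2 and 42.3 CPM in no tumor, 35.3, 43.1, 37.9 and 27.1 CPM in KPC mice and 14.3, 42.1, 57.9 and 38.6 CPM in KPC IL6KO libraries. No tumor 6 was more than any other fat library, and without it the KPC difference of -0.63 ± 0.43 (SE, adjusted p = 0.606) was -0.12. Hsd11b1 had 27.1, 162, 12.4 and 37.3 CPM in no tumor, 132, 37.3, 26.3 and 25.8 CPM in KPC mice and 15.2, 30.5, 84.4 and 38.1 CPM in KPC IL6KO libraries. Each group held 1 library far above its others, and the KPC difference of -0.11 ± 0.82 (SE, adjusted p = 0.969) ranged from -1.002 to 1.11 as single libraries were left out. Zbtb16 had 21.2, 109, 16.9 and 23.8 CPM in no tumor, 50.7, 25.6, 19.7 and 16.8 CPM in KPC mice and 24.0, 41.3, 119 and 76.1 CPM in KPC IL6KO libraries, and its KPC difference was -0.60 ± 0.67 (SE, adjusted p = 0.729). Tsc22d3 lay between 44.8 and 181 CPM and Klf9 between 44.8 and 135 CPM over the 12 libraries, with KPC differences of -0.53 ± 0.36 and 0.17 ± 0.37. No tumor 6 was the highest of its group for 7 of the 9 genes.

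Of the other lists in fat, none had a called gene in any comparison. The quasi-likelihood test called 0% of all 16962 genes in each, so this count says nothing particular of the lists. The lists were read from that test only. The 52 measured genes induced by glucocorticoid had a median of -0.00 in KPC against no tumor and 0.16 in KPC IL6KO against no tumor. The 16 measured genes repressed by glucocorticoid, which are mainly cytokines, chemokines and adhesion molecules, had medians of 2.89 and 2.66, beside -0.10 and -0.03 over all genes. Macrophage markers were at 251 to 984 CPM in sum in no tumor, 1133 to 1616 CPM in KPC mice and 419 to 2796 CPM in KPC IL6KO fat libraries. Neutrophil markers were at 3.09 to 6.57, 24.4 to 58.9 and 4.42 to 63.5 CPM in the same order, and Ly6g was not in the table. Their part in those medians was not tested.

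The effects in the 2 tissues were then compared in 1 fit of all 23 libraries over the 12599 genes in both tables, in which a gene was called at an adjusted p of 0.05 or less. For KPC against no tumor, the quadriceps effect was called above the fat effect for 4 of the 9 genes, against 19.2% of all genes. The estimate was positive for all 9, with a median of 1.496 beside -0.04 over all genes. The difference between effects was 3.68 ± 0.68 (SE, adjusted p = 3.58e-04) for Fkbp5, 3.36 ± 0.81 (SE, adjusted p = 0.00323) for Zbtb16, 2.82 ± 0.54 (SE, adjusted p = 4.77e-04) for Klf15 and 1.32 ± 0.51 (SE, adjusted p = 0.0474) for Tsc22d3. Tsc22d3 lost its call in 12 of the 23 fits that left out 1 library, with 0.84 and an adjusted p of 0.131 without fat no tumor 6, and an adjusted p of 0.0249 to 0.131 over all 23. The Zbtb16 difference was 2.31 without fat no tumor 6 and kept its call. Ddit4, at 1.60 ± 0.71 (SE, adjusted p = 0.0795), Klf9, at 0.94 ± 0.47 (SE, adjusted p = 0.119), and Hsd11b1, at 1.496 ± 0.98 (SE, adjusted p = 0.234), did not pass. Leaving out single libraries moved Hsd11b1 from 0.29 without fat no tumor 6 to 2.38 without fat KPC 5, with no call. Klf9 was called without fat KPC 5, at 1.28 with an adjusted p of 0.0288 in a range of 0.0288 to 0.317 over these fits. Ddit4 was called without quadriceps no tumor 3, at 2.27, and without quadriceps KPC IL6KO 1, with adjusted p from 0.0227 to 0.185. Sgk1, at 0.27 ± 0.68, and Nr3c1, at 0.58 ± 0.42, did not pass either.

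For KPC against KPC IL6KO, 5 of the 9 genes were called with a greater effect in quadriceps than in fat, against 18.3% of all genes. All 9 estimates were positive, with a median of 1.758 beside -0.0027 over all genes. The difference between effects was 3.96 ± 0.69 (SE, adjusted p = 2.67e-04) for Ddit4, 3.33 ± 0.77 (SE, adjusted p = 0.00262) for Zbtb16, 3.18 ± 0.64 (SE, adjusted p = 8.26e-04) for Fkbp5, 2.34 ± 0.51 (SE, adjusted p = 0.00162) for Klf15 and 1.76 ± 0.49 (SE, adjusted p = 0.00949) for Tsc22d3. These 5 kept their calls as each of the 23 libraries was left out. Klf9, at 1.01 ± 0.45 (SE, adjusted p = 0.0882), and Hsd11b1, at 1.65 ± 0.93 (SE, adjusted p = 0.181), did not pass. Neither did Sgk1, at 1.17 ± 0.65 (SE, adjusted p = 0.175), nor Nr3c1, at 0.14 ± 0.40 (SE, adjusted p = 0.815). Without fat KPC 5, Klf9 and Hsd11b1 were called. Klf9 was also called without fat no tumor 6, and Sgk1 without fat KPC IL6KO 6. For KPC IL6KO against no tumor no gene of the 9 was called, nor any of the 12599 genes (0%) by the quasi-likelihood test, and Ddit4 was the only one of the 9 with an unadjusted p under 0.05, at 0.00310 with a difference of -2.36 ± 0.70. DESeq2 and the likelihood ratio test called none of the 9 there. Tissue and preparation cannot be told apart in any of these differences. The fits of both tissues held no Gpx5 term, though 4 KPC, 2 no tumor and 1 KPC IL6KO fat libraries were high in Gpx5. The part of epididymis RNA in these differences was not tested.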

How the data were processed

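Quadriceps (11 libraries) and epididymal fat (12 libraries) were profiled by paired-end, strand-specific RNA sequencing. The deposited values are raw gene counts, made by the authors with STAR on mm10 and featureCounts 1.5.1, and analysed by them in edgeR 3.12.1. The labels and the methods name different library kits, and the strand setting of the counting is not given in the sources used here. No exon of the 9 genes overlaps another gene in GENCODE M21. Groups follow the labels. Nothing ties the libraries of the tissues to shared mice, and p-values measure the spread between libraries.

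Counts were scaled by TMM and fitted per tissue, over all 3 groups, with edgeR 4.0.16 (glmQLFit, glmQLFTest) in R 4.3.3, with Benjamini-Hochberg adjustment over all genes. The SE is the log2 fold change divided by the root of F. The effects in the tissues were compared as an interaction in 1 fit over shared genes. RPKM used the exon length of GENCODE M21. Floors of 3 counts cover counting error only. No libraries were duplicates. Alternatives were DESeq2 1.42.0, the likelihood ratio test, other quasi-likelihood forms, limma 3.58.1 voom, other scalings and filters, a replicate block, Gpx5 terms and leaving out each library. Total-count scaling, Gpx5 as a factor and the fit of the Gpx5-high libraries were added after seeing the data.

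The genes, lists and tests were chosen with earlier results of these data known. Named were the 9 genes, the highest and lowest called gene and the gene of highest level of each pathway list (the 5 highest and lowest of the induced list), and the 5 nearest profiles to Nr3c1 and Fkbp5; 1 gene that this rule names is not reported here. Promoters were printed for called genes with the longest motif match.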

Additional observations from a re-analysis of the deposited data

Results flagged for a closer look

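The Klf15 level of fat no tumor 6, 105.8 CPM, stood far from the 36.2 to 42.3 CPM of the other no tumor libraries. On log2 CPM it was the only one of 45 gene and group combinations of 4 libraries past the limit of Dixon's test, at a ratio of 0.855, and chance passes it in about 1 of 20. On the CPM scale, tried after seeing the data, 4 passed, all in fat: Klf15 in no tumor 6 (0.912), Zbtb16 in no tumor 6 (0.925), Hsd11b1 in no tumor 6 (0.834) and Hsd11b1 in KPC 5 (0.892).

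The KPC against no tumor effect differed between quadriceps and fat for Fkbp5 by 3.68 ± 0.68 (SE, adjusted p = 3.58e-04), for Tsc22d3 by 1.32 ± 0.51 (SE, adjusted p = 0.0474), for Klf15 by 2.82 ± 0.54 (SE, adjusted p = 4.77e-04) and for Zbtb16 by 3.36 ± 0.81 (SE, adjusted p = 0.00323), from edgeR's quasi-likelihood test of the interaction. The KPC against KPC IL6KO effect differed for Fkbp5 by 3.18 ± 0.64 (SE, adjusted p = 8.26e-04), for Tsc22d3 by 1.76 ± 0.49 (SE, adjusted p = 0.00949), for Klf15 by 2.34 ± 0.51 (SE, adjusted p = 0.00162), for Zbtb16 by 3.33 ± 0.77 (SE, adjusted p = 0.00262) and for Ddit4 by 3.96 ± 0.69 (SE, adjusted p = 2.67e-04). All 9 differences were toward a higher effect in quadriceps, and tissue and preparation cannot be told apart. These fits held no Gpx5 term.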

How the results depend on the processing

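Over all alternatives fitted, the number of the 9 genes called stayed within 6 to 8 in quadriceps KPC against no tumor, at 8 in KPC against KPC IL6KO and at 0 in every fat comparison. It stayed within 3 to 5 and 5 to 7 for the tissue differences of KPC against no tumor and against KPC IL6KO. Calls of single genes were lost for Sgk1 (KPC against no tumor, adjusted p 0.0141 to 0.145 over the alternatives, called in 12 of 21) and Tsc22d3 (0.00599 to 0.0942, called in 16 of 21), and the cause was not tested. Each of the 9 genes was above 3 counts in every library.

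Same-numbered libraries correlated at -0.191 to 0.290 in quadriceps (median 0.052) and at -0.613 to 0.610 in fat (median 0.085). Differently numbered libraries correlated at -0.271 to 0.333 (median -0.041) and at -0.644 to 0.680 (median -0.124). These ranges are too wide to show whether the replicate numbers pair the libraries. With a replicate block, 7 genes were called in quadriceps KPC against no tumor, 0 in KPC IL6KO against no tumor and 8 in KPC against KPC IL6KO. Sgk1, at 0.62, had an adjusted p of 0.0844. The Tsc22d3 tissue difference had 0.0744 and that of Ddit4 0.0413. The block turned the sign in fat of Hsd11b1 in KPC against no tumor (0.081) and of Klf9 in KPC IL6KO against no tumor (0.12), and that of the Zbtb16 tissue difference in KPC IL6KO against no tumor (-0.23).

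No value that changed sign had passed the test. With Gpx5 as a covariate, the fat KPC against no tumor differences of Hsd11b1, Fkbp5 and Zbtb16 became 0.76, -0.21 and 0.14. With Gpx5 as a factor they became 1.02, -0.38 and 0.33. Over the Gpx5-high libraries alone, where KPC IL6KO had 1 library that was assumed to vary like the others, those of Hsd11b1, Fkbp5, Tsc22d3, Klf15 and Zbtb16 became 1.58, -0.24, 0.13, 0.039 and 0.66. In fat KPC IL6KO against no tumor, Fkbp5 became 0.10 with the covariate and 0.13 with the factor. Over the Gpx5-high libraries Nr3c1, Hsd11b1, Fkbp5, Tsc22d3, Klf15, Klf9 and Sgk1 became 0.11, 0.63, 0.27, 0.34, 0.15, 0.33 and -0.38 there, and Klf9 became 0.037 with total-count scaling. In fat KPC against KPC IL6KO, Fkbp5, Tsc22d3, Klf15 and Sgk1 became -0.31, 0.0014, 0.20 and 0.94 with the covariate. Nr3c1, Fkbp5, Tsc22d3, Klf15 and Sgk1 became 0.057, -0.51, 0.10, 0.22 and 1.24 with the factor, and Fkbp5 and Sgk1 became -0.51 and 1.68 over the Gpx5-high libraries. With voom the tissue difference of Sgk1 in KPC against no tumor became -0.22, and those of Nr3c1, Klf15 and Zbtb16 in KPC IL6KO against no tumor -0.16, -0.026 and -1.02.

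Leaving out single libraries turned other signs. The tissue differences in KPC IL6KO against no tumor ranged from -1.34 to 0.47 for Hsd11b1, -0.010 to 0.78 for Klf15, -0.48 to 0.10 for Klf9, -0.00056 to 0.68 for Nr3c1 and -0.99 to 0.53 for Zbtb16. That of Nr3c1 ranged from -0.050 to 0.27 in KPC against KPC IL6KO, and that of Sgk1 from -0.074 to 0.58 in KPC against no tumor. In fat KPC IL6KO against no tumor, Fkbp5 ranged from -0.69 to 0.14, Hsd11b1 from -1.12 to 0.72, Klf9 from -0.19 to 0.42, Nr3c1 from -0.57 to 0.13 and Tsc22d3 from -0.46 to 0.21. In fat KPC against KPC IL6KO, Hsd11b1 ranged from -0.50 to 1.02, Klf15 from -0.37 to 0.23, Klf9 from -0.17 to 0.36 and Sgk1 from -0.60 to 0.029. In fat KPC against no tumor, Fkbp5 ranged from -0.064 to 0.38, Hsd11b1 from -1.002 to 1.11, Klf9 from -0.18 to 0.60 and Zbtb16 from -1.04 to 0.45. In quadriceps, Klf15 ranged from -0.18 to 0.031 and Nr3c1 from -0.015 to 0.19 in KPC IL6KO against no tumor, and Nr3c1 from -0.29 to 0.026 in KPC against no tumor.

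Counts over all genes moved more. In fat KPC against no tumor, where the quasi-likelihood test called 0, the fit of the 2 groups alone called 166 higher and 8 lower, the Gpx5 covariate 117 and 10, the Gpx5 factor 495 and 132, the Gpx5-high libraries 342 and 51 and the newer quasi-likelihood form 15 and 1. In fat KPC IL6KO against no tumor DESeq2 called 282 and 4 and the likelihood ratio test 209 and 0, and in KPC against KPC IL6KO 19 and 106, 7 and 59, with 1 and 0 for the newer form. For the tissue difference of KPC IL6KO against no tumor, DESeq2 called 3 and 43, the likelihood ratio test 0 and 39 and voom 360 and 951. Scaling by relative log expression moved the tissue difference of KPC against no tumor from 2420 higher and 2437 lower to 2718 and 2167.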
